A study of Mus musculus with 6 samples.

Results

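Scavenger receptors are cell surface proteins that bind and take in modified lipoproteins, waste molecules and remains of dead cells. The 10 genes described here were named one by one: the stabilins Stab1 and Stab2, Msr1, Marco, Cd36, Scarb1, Cd68, Olr1, Cd163 and Mrc1, which are 10 of the 23337 genes in the deposited count table. They were chosen by name with earlier results of these data known, and Stab1 was selected on its count in the drug libraries against the vehicle libraries. Their values in the drug comparisons are therefore given as a description, and counts past a threshold there support nothing. Macrophages and the endothelium of liver, spleen and bone marrow sinusoids are the best known carriers of these receptors. The receptors share a task rather than an ancestor, and are sorted into classes by the shape of the outer part of the protein. After binding, most of them deliver their cargo to endosomes and lysosomes.

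The study profiled polyadenylated RNA of mouse granulocyte-monocyte progenitors from C57BL6 bone marrow that carried ER-HOXA9, a fusion of the estrogen receptor with the homeobox protein HOXA9. Such a fusion holds progenitors immature and dividing while estradiol is present, so the cells model a differentiation block and are not normal progenitors. All 3 groups grew with stem cell factor and 0.5 µM beta-estradiol, and none was without the fusion. In the drug group, the cells received 3 agents together for 3 days: GSK-LSD1 at 200 nM, which blocks the histone demethylase LSD1, mercaptopurine at 5 µM, a purine analogue that disturbs nucleotide synthesis, and cerulenin at 5 µM, which blocks fatty acid synthase. The vehicle group received DMSO for 3 days, and the untreated group was taken at day 0. No group received 1 drug alone. Each group had 2 libraries, called biological replicates by the submitters without saying whether these were separate cultures, so p-values measure the spread between these libraries only.

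Total counts were 12290882 and 15310378 with the drugs, 12459793 and 11305666 with vehicle, and 16948697 and 13139172 at day 0. Rn45s, the ribosomal RNA precursor, took 15.7% and 15.9% of them with the drugs, 16.1% and 14.6% with vehicle, and 20.5% and 24.6% at day 0. All 11 progenitor markers were detected, and their summed level was 12290 and 12890 CPM (counts scaled for library size) with the drugs, 9838 and 10160 CPM with vehicle, and 8781 and 9093 CPM at day 0. The largest part was Mpo, with 6517 and 6954 CPM with the drugs, 4647 and 4646 CPM with vehicle, and 3495 and 4027 CPM at day 0. For drugs against vehicle, 5 of the 11 passed an edgeR adjusted p of 0.05 as higher, 1 (Ctsg) as lower and 5 did not pass. Of all tested genes, 18.1% passed as higher and 13.8% as lower. Of 12 macrophage markers 6 were listed at 0 in every library (Mertk, C1qa, C1qc, Timd4, Vsig4 and Lyz2), and of 10 endothelial markers 6 were (Cdh5, Kdr, Tek, Emcn, Lyve1 and Clec4g). How reads with several matches were counted is unknown, so a row at 0, that of Lyz2 above all, may reflect the counting rather than the transcript.

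On mm10 all the genes but Mrc1 and Cd163 lie on the minus strand. Only 4 of the 10 had enough reads to test (Stab1, Scarb1, Cd68 and Olr1), and the other 6 had at most 12 counts in any library. Stab1 was low without the drugs and among the 157 most abundant genes by CPM in both drug libraries. Cd68 was about 3-fold higher with the drugs than with vehicle. Olr1 and Scarb1 were abundant in all 3 groups and differed little between drugs and vehicle, while Olr1 was lowest at day 0. Of the 4, 2 passed the adjusted p threshold of 0.05 as higher and 0 as lower with the drugs against vehicle, where 31.9% of all 11283 tested genes passed, 18.1% as higher and 13.8% as lower. Since the genes were chosen with this comparison known, nothing is read from that count.

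Stab1 encodes stabilin-1, a class H receptor with many EGF-like and fasciclin domains that takes in SPARC, acetylated lipoprotein and apoptotic cells and shuttles cargo between the Golgi and endosomes. On mm10 it lies at chr14:31139017-31168641 on the minus strand and has 69 exons of 7995 bases in all in the table. Its reads numbered 7078 and 8346 in the drug libraries, 49 and 53 in the vehicle libraries, and 89 and 73 in the untreated libraries. Scaled for depth, that was 567 and 539 CPM with the drugs, 3.87 and 4.43 CPM with vehicle, and 5.33 and 6.07 CPM at day 0. Both drug libraries stood far above all the others, and the vehicle libraries lay below the untreated ones without overlap. The mean with the drugs was 553 ± 20.0 CPM against 4.15 ± 0.395 CPM with vehicle (SD, n = 2 each), a ratio of 133 and a log2 change of 7.06 ± 0.109 (SE). Of all tested genes, 12 had a larger rise in this comparison. Against day 0, with 5.70 ± 0.525 CPM, the log2 change was 6.61 ± 0.103, and 16 genes had a larger rise. In bulk RNA, more cells with the transcript and more transcript per cell cannot be told apart.

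The change of Stab1 varied little between settings, with log2 values of 6.96 to 7.14 for drugs against vehicle over 14 alternatives that include leaving out each library. By CPM it ranked 135 and 157 among all genes in the drug libraries, 9526 and 9419 with vehicle, and 9278 and 9039 at day 0. It took 0.0576% and 0.0545% of all counts with the drugs and 0.000393% and 0.000469% with vehicle. Vehicle against day 0 was not used to choose the gene, although it shares the vehicle libraries with the comparison that was. There Stab1 did not pass the test (log2 change -0.45 ± 0.162, edgeR quasi-likelihood test with Benjamini-Hochberg adjustment, adjusted p = 0.112), nor did it under any of the 14 alternatives (adjusted p 0.075 to 0.489).

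**Figure D1:**
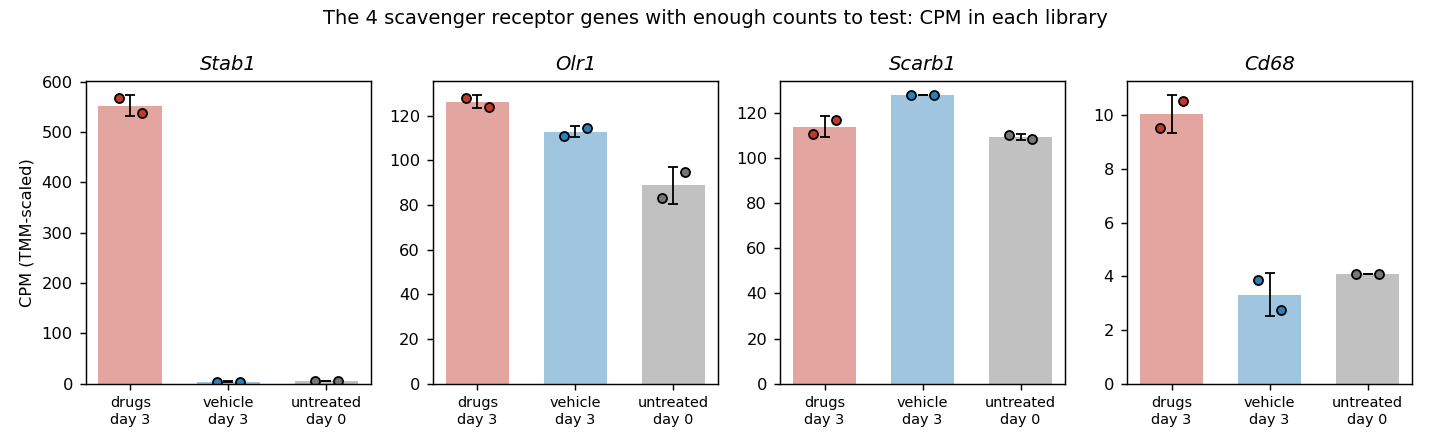
Level of the 4 tested genes in CPM (linear axes from 0), one point per library, with bars at the group mean and error bars of 1 SD (n = 2). Stab1 is at 567 and 539 CPM with the drugs and at most 6.07 CPM elsewhere, Cd68 is highest with the drugs, and Olr1 and Scarb1 are above 80 CPM in every library.

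Some markers of other cell types were also higher with the drugs. The summed macrophage markers had 93.0 and 92.2 CPM with the drugs, 29.1 and 28.4 CPM with vehicle, and 41.4 and 34.0 CPM at day 0. Their sum was led by Emr1, which encodes the surface receptor F4/80 (67.2 ± 0.969 CPM with the drugs, 19.1 ± 2.06 CPM with vehicle), and included Csf1r, the receptor of the macrophage growth factor (15.8 ± 0.682 CPM against 1.75 ± 0.242 CPM). Of the 5 tested macrophage markers 3 rose, Emr1, Csf1r and Cd14, while the fractalkine receptor Cx3cr1 fell at a low level (0.881 and 0.516 CPM with the drugs, 1.58 and 2.17 CPM with vehicle, edgeR adjusted p = 0.0159) and Fcgr1 was not called (adjusted p = 0.615). Stabilin-1 is also known from sinusoidal endothelium. The endothelial sum was 242 and 241 CPM with the drugs, 176 and 171 CPM with vehicle, and 216 and 226 CPM at day 0, but nearly all of it was Pecam1, an adhesion molecule that progenitors express as well (241 and 240 CPM with the drugs, 175 and 170 CPM with vehicle). The mast cell and basophil sum was 1302 and 1214 CPM with the drugs, 558 and 542 CPM with vehicle, and 1155 and 969 CPM at day 0. Nearly all of it was the protease gene Cpa3 (1189 and 1105 CPM with the drugs, 470 and 452 CPM with vehicle), whereas Mcpt8, a basophil protease gene, fell (22.6 and 19.1 CPM against 25.1 and 26.1 CPM, adjusted p = 0.0469). Gata2 of the same list rose (89.2 and 87.6 CPM against 61.8 and 62.3 CPM, edgeR adjusted p = 8.71e-05), and Ms4a2 was not called. Each of the Cd14, Cx3cr1 and Mcpt8 calls was lost with DESeq2 and without drug replicate 2. The Cd14 call was also lost without drug replicate 1 or vehicle replicate 1, that of Cx3cr1 without vehicle replicate 2, and that of Mcpt8 without either vehicle library and with library totals. Over the alternatives their adjusted p reached 0.137 for Cd14, 0.163 for Cx3cr1 and 0.393 for Mcpt8. Mature neutrophil markers summed to 7.61 and 7.87 CPM with the drugs and 4.11 and 2.93 CPM with vehicle. At day 0 they summed to 1.376 and 1.995 CPM. Most of the sum with the drugs was Mmp9 (5.61 and 4.78 CPM, against 0.158 and 0.0836 CPM with vehicle). Mmp9 alone of the 3 tested neutrophil markers was called higher, and S100a8 and Cxcr2 were not called (log2 changes -0.57 and -0.22). Stroma markers, mostly Pdgfrb, summed to 39.6 and 36.4 CPM with the drugs and 27.4 and 21.0 CPM with vehicle. At day 0 the stroma sum was 34.5 and 30.7 CPM, so the vehicle libraries were the low ones. Neither of the 2 tested stroma markers was called for drugs against day 0. Megakaryocyte and platelet markers summed to 18.7 and 13.9 CPM with the drugs and 16.4 and 20.9 CPM with vehicle, which overlapped. At day 0 these markers were higher, with a sum of 44.15 and 33.33 CPM. Among them Gp9 fell (0.641 and 0.516 CPM with the drugs, 3.00 and 3.93 CPM with vehicle, edgeR adjusted p = 7.95e-05). The part of such cells in the Stab1 level was not tested.

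Stab2 encodes stabilin-2, the main hyaluronan clearance receptor of sinusoidal endothelium and the closest relative of stabilin-1. It lies at chr10:86841210-87007942 on the minus strand, also with 69 exons. It had 11 and 4 counts with the drugs, 4 and 3 with vehicle, and 1 and 3 at day 0, so the drug and vehicle groups shared a count of 4. Stab2 was too low to test, and all its libraries were under 0.9 CPM.

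The promoters of the stabilins are shown because both genes encode near relatives while their levels with the drugs were far apart. They are the 250 bases before each gene's start in RefSeq (GRCm38.p6), at chr14:31168642-31168891 for Stab1 and chr10:87007943-87008192 for Stab2, written 5′ to 3′ on the gene's strand. Capitals mark GAGGAA, the core bound by PU.1, a myeloid transcription factor, and AAATC, the flanked core bound by GFI1, a repressor that recruits LSD1. Both strands were searched, so TTCCTC and GATTT count as matches.
Stab1 promoter: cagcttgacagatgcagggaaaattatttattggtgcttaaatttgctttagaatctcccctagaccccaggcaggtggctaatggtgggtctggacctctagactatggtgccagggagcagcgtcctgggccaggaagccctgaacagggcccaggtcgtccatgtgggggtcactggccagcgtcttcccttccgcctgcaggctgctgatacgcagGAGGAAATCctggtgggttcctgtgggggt
Stab2 promoter: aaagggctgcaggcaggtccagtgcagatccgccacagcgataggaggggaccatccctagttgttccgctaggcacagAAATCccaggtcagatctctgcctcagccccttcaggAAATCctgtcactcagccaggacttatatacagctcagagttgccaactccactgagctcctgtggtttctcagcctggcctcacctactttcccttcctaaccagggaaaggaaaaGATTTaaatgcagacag
Counted from the base before the start as -1, the Stab1 promoter holds GAGGAA at -30 to -25, and the last bases of it overlap AAATC at -26 to -22. Stab2 has no GAGGAA and 3 AAATC matches, of which the nearest is GATTT at -17 to -13. Across 32851 RefSeq promoters of the same length, 23.3% hold GAGGAA on either strand and 32.7% hold AAATC. The joined letters GAGGAAATC, a string chosen after the Stab1 promoter had been read, are in 86 of them (0.262%). Because the string was taken from that promoter and is longer than either motif, its lower share supports nothing. Both motifs were also found in receptor promoters not shown. Marco, at 0 counts in all 6 libraries, has GAGGAA at -146 to -141 directly followed by GATTT at -140 to -136. Olr1, which differed little between drugs and vehicle, has TTCCTC at -76 to -71 and GATTT at -248 to -244. Mrc1, too low to test, has 3 GAGGAA matches and no AAATC. A match describes the letters and is not evidence of binding.

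Class A receptors have a collagen-like stalk that binds modified lipoproteins and bacteria. Msr1, the founding member (chr8:39581700-39642678), had 4 and 12 counts with the drugs, 5 and 3 with vehicle, and 3 and 3 at day 0, and the drug and vehicle groups overlapped. Marco, the receptor of marginal zone and alveolar macrophages (chr1:120474538-120505084), had 0 counts in all 6 libraries. A count of 0 allows up to 3 counts per library, which is 0.194 to 0.240 CPM in the drug libraries, 0.237 to 0.251 CPM with vehicle, and 0.180 to 0.249 CPM at day 0, for counting error only and if the gene's reads were counted at all.

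Class B receptors cross the membrane at both ends. Scarb1 encodes SR-BI, which takes cholesterol from high-density lipoprotein (chr5:125277087-125341094). It had 111 and 117 CPM with the drugs, 128 and 128 CPM with vehicle, and 110 and 108 CPM at day 0. The vehicle libraries were highest, and the drug and untreated libraries were close without overlap. Drugs against vehicle gave a log2 change of -0.17 ± 0.0664, and drugs against day 0 gave 0.06 ± 0.0664. For vehicle against day 0 the log2 change was 0.23 ± 0.0665 and missed the threshold with edgeR (adjusted p = 0.0576). It was called higher with library totals, without the low-count filter, without Rn45s and with the crossed block described under the processing alternatives (adjusted p 0.00636 to 0.195 over 14 alternatives).

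Cd36, a class B receptor for oxidised lipoprotein, thrombospondin and fatty acids (chr5:17781690-17888959), had 1 and 9 counts with the drugs, 0 and 0 with vehicle, and 2 and 0 at day 0. Its level with the drugs rested on replicate 2, since replicate 1 had fewer counts than an untreated library. Cd36 did not pass the low-count filter. Kept in without that filter, it passed the threshold as higher for drugs against vehicle, which makes 3 receptors. Its log2 change of 5.30 is a fitted value that depends on the prior count because both vehicle libraries were at 0.

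Class D is represented by Cd68, a heavily glycosylated protein of late endosomes and lysosomes that is widely used to stain macrophages (chr11:69664371-69666062). Its counts were 119 and 163 with the drugs, 49 and 33 with vehicle, and 68 and 49 at day 0. In CPM that was 9.53 and 10.5 with the drugs, 3.87 and 2.76 with vehicle, and 4.07 and 4.07 at day 0. Both drug libraries were above all the others, and the vehicle libraries lay below the untreated ones. The log2 change was 1.59 ± 0.187 against vehicle, a ratio of 3.02, with 1.36 to 1.86 over the 14 alternatives, and 1.30 ± 0.174 against day 0. In the comparison with vehicle, 325 tested genes had a larger rise. Vehicle against day 0 was not called (log2 change -0.29 ± 0.217, edgeR adjusted p = 0.424). The Cd68 promoter is shown because the ratio of drugs to vehicle was second to that of Stab1 among the tested receptors. It is the RefSeq window chr11:69666171-69666420, minus strand, with the same marking.
Cd68 promoter: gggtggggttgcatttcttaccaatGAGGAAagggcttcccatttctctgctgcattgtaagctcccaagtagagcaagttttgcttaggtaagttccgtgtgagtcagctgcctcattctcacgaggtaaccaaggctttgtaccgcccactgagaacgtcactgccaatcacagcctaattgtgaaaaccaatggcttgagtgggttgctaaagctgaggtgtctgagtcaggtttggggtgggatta
It has GAGGAA at -225 to -220 and no AAATC. RefSeq places the start upstream of the table's gene interval, so another start would give another window.

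Class E holds the lectin-like receptor LOX-1, encoded by Olr1, which binds oxidised low-density lipoprotein and is best known from endothelium (chr6:129485247-129507165). It had 128 and 124 CPM with the drugs, 111 and 115 CPM with vehicle, and 83.0 and 94.7 CPM at day 0. The drug libraries were highest and the untreated ones lowest, with no overlap between the 3 groups. Olr1 was higher with vehicle than at day 0 (log2 change 0.35 ± 0.0761, 113 ± 2.53 CPM against 88.9 ± 8.22 CPM, edgeR adjusted p = 0.0154). That was 1 of the 4 tested receptors called in either direction, where 7.74% of all tested genes were called. Over the 14 alternatives the adjusted p ran from 0.000104 to 0.121, and the call was lost without untreated replicate 1, with a log2 change of 0.25. Drugs against vehicle gave a log2 change of 0.16 ± 0.0749 and drugs against day 0 gave 0.51 ± 0.0754.

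Cd163, the class I receptor for haptoglobin-haemoglobin complexes (chr6:124304651-124330527), had 5 and 7 counts with the drugs, 7 and 5 with vehicle, and 8 and 8 at day 0. Mrc1, the mannose receptor CD206 (chr2:14229414-14332023), had 11 and 9 counts with the drugs, 9 and 5 with vehicle, and 9 and 10 at day 0. Both are standard markers of alternatively activated macrophages, and in both the drug and vehicle groups overlapped. Fitted without the low-count filter, Stab2, Msr1, Cd36, Mrc1 and Cd163 were not called in vehicle against day 0 (edgeR adjusted p 0.603 to 0.944).

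**Figure D2:**
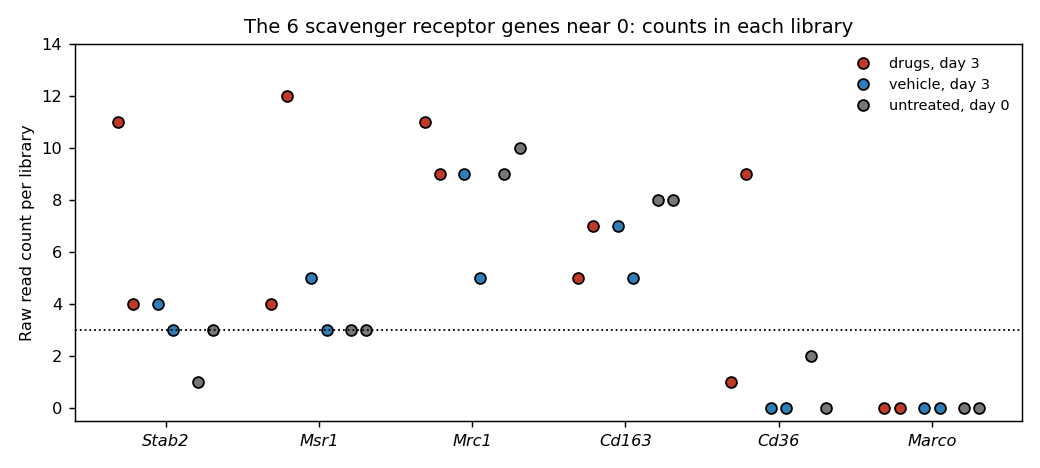
Raw read counts (linear axis) of the 6 genes too low to test, one point per library, drugs left, vehicle in the middle and untreated right within each gene. The dotted line marks 3 counts, no library exceeds 12 counts, and Marco is at 0 in all 6.

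For drugs against day 0, 3 of the 4 tested receptors passed as higher (Stab1, Cd68 and Olr1) and 0 as lower, where 43.9% of all tested genes passed, 22.7% as higher and 21.2% as lower. This comparison shares the drug libraries with the first, and nothing is read from the count.

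In RPKM, the CPM divided by exon length in kilobases, which allows levels to be compared between genes, Stab1 reached 69.1 ± 2.50 RPKM with the drugs, above Scarb1 with 36.7 ± 1.48 RPKM and Olr1 with 35.4 ± 0.819 RPKM, which did not differ beyond their spread. Cd68 followed with 9.95 ± 0.693 RPKM, and Mrc1, Msr1, Cd163, Cd36 and Stab2 were all under 0.2 RPKM. With vehicle the order was Scarb1 (41.2 ± 0.000982 RPKM), Olr1 (31.6 ± 0.707 RPKM), Cd68 (3.29 ± 0.782 RPKM) and Stab1 (0.519 ± 0.0494 RPKM). At day 0 the order was the same, with Scarb1 at 35.2 ± 0.414, Olr1 at 24.9 ± 2.30, Cd68 at 4.04 ± 0.00285 and Stab1 at 0.712 ± 0.0657 RPKM. Thus Stab1 stood first of the 10 genes with the drugs and behind Scarb1, Olr1 and Cd68 in both other groups.

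The summed level of the 10 receptor genes was 152 and 151 RPKM with the drugs, 77.0 and 76.9 RPKM with vehicle, and 63.8 and 66.6 RPKM at day 0. Stab1 made up 45.6 ± 1.33% of that sum with the drugs, 0.675 ± 0.0652% with vehicle and 1.09 ± 0.0667% at day 0. Without Stab1 the sum was 81.5 and 83.5 RPKM with the drugs, 76.5 and 76.3 RPKM with vehicle, and 63.1 and 65.9 RPKM at day 0. Scarb1 made up 24.2 ± 1.15% with the drugs, 53.5 ± 0.0815% with vehicle and 54.0 ± 2.32% at day 0, although its own level differed little. Among all genes, Stab1 ranked 684 and 750 by RPKM in the drug libraries and 10823 and 10724 in the vehicle libraries, a lower place than by CPM because its exons are long.

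**Figure D3:**
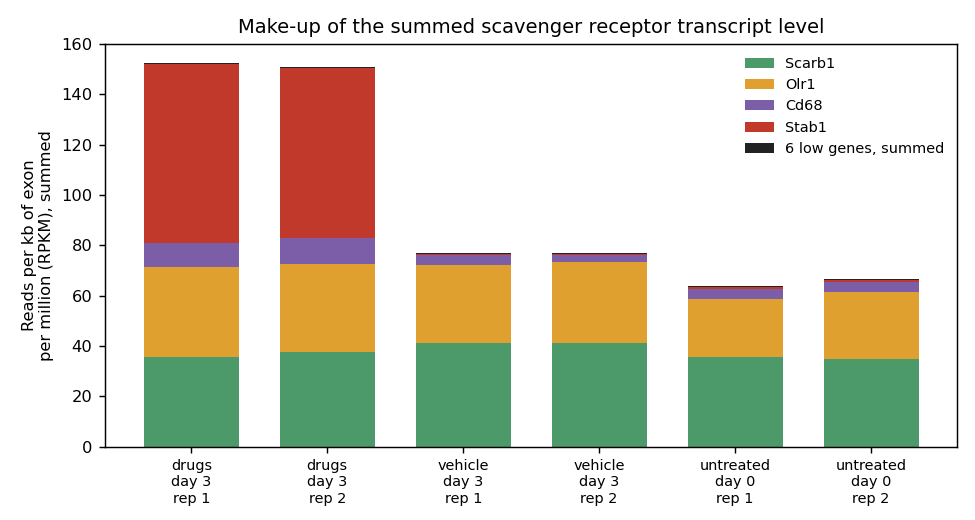
Stacked bars of the transcript level of the 10 genes in RPKM (linear axis from 0), one bar per library, with Scarb1 at the base, then Olr1, Cd68 and Stab1, and the 6 low genes summed on top. The drug libraries reach 152 and 151 RPKM, of which Stab1 is 45.6% on average, and the vehicle libraries 77.0 and 76.9 RPKM.

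**Figure D4:**
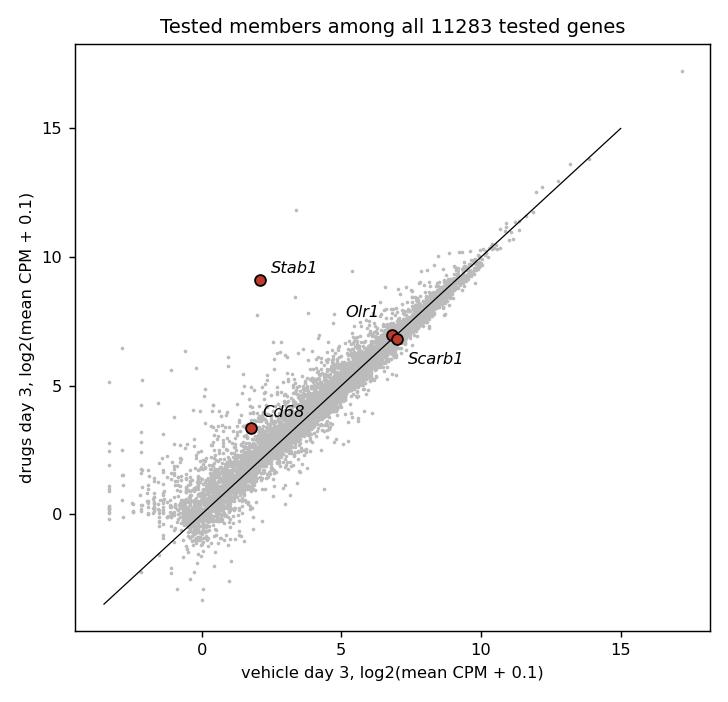
Each point is 1 of 11283 tested genes, with log2 of the mean CPM plus 0.1 in vehicle libraries on the x axis and in drug libraries on the y axis, and a line of equality. Stab1 lies far above the line (553 CPM with the drugs against 4.15 CPM with vehicle), Cd68 above it, and Olr1 and Scarb1 near it.

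Of the 6 nearest tested neighbours of Stab1, Cd68 and Olr1, 2 rose and 1 fell with the drugs against vehicle. Nt5dc2, a haloacid dehalogenase family gene that runs toward Stab1 and shares 108 exon bases with it, fell with the drugs to 100.4 ± 1.30 CPM, against 125 ± 2.99 CPM with vehicle (log2 change -0.31 ± 0.0669, edgeR adjusted p = 0.00351). Nt5dc2 was not called once drug replicate 1 was left out (adjusted p 8.05e-05 to 0.0639 over the 14 alternatives). The strand setting of the counting is not known here, which leaves reads in the shared bases uncertain. Nisch, an imidazoline-binding protein gene 2286 bases before the start of Stab1, had 277 ± 1.87 CPM with the drugs and 270 ± 0.192 CPM with vehicle (log2 change 0.04 ± 0.0699, adjusted p = 0.71). Beside Cd68, Mpdu1 and Eif4a1 had log2 changes of 0.09 ± 0.128 (adjusted p = 0.624) and -0.09 ± 0.0833 (adjusted p = 0.47). Beside Olr1, Clec7a, which encodes the beta-glucan receptor dectin-1 and lies 12469 bases away, rose (log2 change 0.79 ± 0.131, adjusted p = 0.00057), as did the unnamed transcript D630042F21Rik (0.97 ± 0.308, adjusted p = 0.0288). The second call was lost without any 1 of the drug or vehicle libraries, with library totals and with DESeq2 (0.0111 to 0.146 over the alternatives). These genes were looked up for their position, not for how they moved.

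Over the 6 libraries, the 5 genes with the pattern most like that of Stab1 included Hdc, the histidine decarboxylase, Dio2, a deiodinase of thyroid hormone, Rpgrip1, a ciliary protein, and Trpm2, a calcium channel. The measure was Pearson's r of log2 CPM with a prior count of 2, over 9064 tested genes with at least 5 CPM in their highest group, passing over predicted genes. The r values were 0.9995 for Hdc, 0.9995 for Dio2, 0.9988 for Rpgrip1 and 0.9987 for Trpm2. The libraries form 3 pairs, so such values describe 3 group levels and carry no test. The genes differed in the size of the change: Hdc had 77.1 ± 3.03 CPM with the drugs and 10.7 ± 0.771 CPM with vehicle, whereas Rpgrip1 had 15.8 ± 1.40 CPM with the drugs and 1.18 ± 0.0107 CPM with vehicle. For Cd68 the genes were Eaf1 (r = 0.9991), St6gal1 (0.9977), Zbtb4 (0.9961), Trps1 (0.9958) and Kif1c (0.9955).

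Genes that act with these receptors were followed in 9 lists, of which 81 distinct genes were tested. With the drugs against vehicle 33 rose and 12 fell, 40.7% and 14.8% of the 81, beside 18.1% and 13.8% of all tested genes, and their median log2 change was 0.14 beside 0.000753 over all tested genes. The counts went from 27 to 34 rises and 8 to 13 falls when each library was left out. For drugs against day 0, 31 of the 81 were called higher and 14 lower, 38.3% and 17.3%. Of all tested genes, 22.7% and 21.2% were called there. The lists were chosen with earlier results known, and no list was tested as a set. Each adjusted p that follows is from edgeR's quasi-likelihood test, with the Benjamini-Hochberg method run on all tested genes.

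Of 18 other scavenger receptor genes on the list, 17 were found and 5 were tested, with 2 rises, 1 fall and a median log2 change of 0.08. The rises were Clec7a, described above, and Scarb2, a lysosomal relative of Scarb1 and Cd36, with 75.5 and 75.5 CPM with the drugs against 61.1 and 55.6 CPM with vehicle (log2 change 0.37 ± 0.0777, adjusted p = 0.00295). Lrp1, a large endocytic receptor that also takes up apoptotic cells, fell to 12.7 and 14.5 CPM with the drugs, against 21.3 and 20.3 CPM with vehicle (log2 change -0.61 ± 0.118, adjusted p = 0.00166). It stood at 11.4 and 12.6 CPM at day 0, so the vehicle libraries were the high ones. In the mannose receptor family only Ly75, the receptor DEC-205, was tested, and it was not called. Of 3 tested LAMP family genes, relatives and partners of Cd68 in the lysosomal membrane, Lamp2 rose (0.49 ± 0.069, adjusted p = 0.000154) and Cd63, a tetraspanin, fell (-0.31 ± 0.094, adjusted p = 0.025). The Cd63 call was lost without either drug library or vehicle replicate 2 and with library totals, and its adjusted p ran from 0.000252 to 0.164 over the 14 alternatives.

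Of 8 tested genes for the sorting and ligands of stabilin-1, 1 rose and 1 fell (median log2 change -0.10). Sort1, the sorting receptor sortilin, rose to 124 and 119 CPM with the drugs, against 96.6 and 95.2 CPM with vehicle (0.34 ± 0.0651, adjusted p = 0.00151). M6pr, the cation-dependent mannose 6-phosphate receptor, fell (-0.27 ± 0.0715, adjusted p = 0.0113), which was not kept without drug replicate 1 or vehicle replicate 2 (adjusted p 0.000462 to 0.19 over the alternatives). The stabilin-1 ligand Sparc was listed at 0 in all 6 libraries.

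Genes of apoptotic cell uptake split, with 3 rises and 3 falls among 11 tested and a median log2 change of -0.04. Itgb5, the integrin beta 5 chain, rose to 104 and 107 CPM with the drugs, against 40.6 and 37.3 CPM with vehicle (1.44 ± 0.0759, adjusted p = 1.88e-08). Mfge8, which bridges phosphatidylserine to integrins, had 25.2 and 29.0 CPM with the drugs against 9.88 and 10.3 CPM with vehicle (1.43 ± 0.133, adjusted p = 3.88e-06). Axl, a receptor kinase of this pathway, rose at a low level (2.63 ± 0.207 CPM against 0.653 ± 0.141 CPM, 2.01 ± 0.355, adjusted p = 0.000898). Its ligand Gas6 fell (-0.64 ± 0.0892, adjusted p = 0.000138), as did Itgav, the alpha chain partner of Itgb5 (-0.40 ± 0.0813, adjusted p = 0.00258). Itgb3 fell as well (-0.26 ± 0.087, adjusted p = 0.0348), which was not kept without drug replicate 2 or vehicle replicate 1 and with DESeq2 (0.000968 to 0.355 over the alternatives). The uptake receptors Mertk and Timd4 were listed at 0 in all 6 libraries.

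Of 16 tested genes of cholesterol and lipid handling, which covers the fate of lipoprotein lipid after uptake, 6 rose and 2 fell (median 0.22). Lipa, the lysosomal acid lipase, rose to 64.8 and 65.3 CPM with the drugs, against 28.6 and 28.6 CPM with vehicle (1.19 ± 0.0853, adjusted p = 3.61e-07). Soat1, which esterifies cholesterol for storage, had 169 and 170 CPM with the drugs against 88.9 and 92.1 CPM with vehicle (0.91 ± 0.0669, adjusted p = 4.5e-07). Ppard, a nuclear receptor for fatty acids, rose by 1.07 ± 0.111 (adjusted p = 1.02e-05). Fabp5, a fatty acid carrier, fell to 10.4 ± 0.950 CPM with the drugs, against 24.1 ± 4.75 CPM with vehicle (-1.21 ± 0.153, adjusted p = 6.18e-05). Abcg1, a cholesterol exporter, also fell (-0.25 ± 0.0828, adjusted p = 0.0382), which was not kept without either drug library or vehicle replicate 1, with library totals or with DESeq2 (0.00494 to 0.355 over the alternatives). Pparg, a lipid-sensing nuclear receptor, and Fabp4, a fatty acid carrier of macrophages, were listed at 0 in all 6 libraries.

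Genes that handle haemoglobin and haem, the cargo of Cd163, had 5 rises and 2 falls among 11 tested (median 0.25). Slc11a1, the phagosomal metal transporter NRAMP1, rose to 27.3 and 25.8 CPM with the drugs, against 4.59 and 4.85 CPM with vehicle (2.49 ± 0.139, adjusted p = 3.22e-08). Hp, haptoglobin, the ligand that Cd163 binds in complex with haemoglobin, had 34.5 and 37.1 CPM with the drugs against 7.51 and 9.11 CPM with vehicle (2.11 ± 0.129, adjusted p = 6.97e-08). Blvrb, biliverdin reductase B, rose by 2.13 ± 0.293 (adjusted p = 0.000123), to 4.15 ± 0.479 CPM. The falls were Fth1, the ferritin heavy chain (-0.62 ± 0.075, adjusted p = 4.1e-05), and Slc48a1, a haem transporter (-0.55 ± 0.0695, adjusted p = 6.13e-05). The iron exporter Slc40a1 was listed at 0 in all 6 libraries, and Cd163 itself had at most 8 counts.

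Partners of Cd36 had 7 rises and 1 fall among 11 tested, with a median log2 change of 0.43, while Cd36 itself had at most 9 counts. Tlr6, a Toll-like receptor that pairs with Tlr4 under Cd36, rose to 8.33 and 8.33 CPM with the drugs, against 2.53 and 2.09 CPM with vehicle (1.84 ± 0.194, adjusted p = 1.2e-05). Tlr4 itself rose by 0.47 ± 0.067 (adjusted p = 0.000177) and Vav3, an exchange factor for small GTPases, by 0.61 ± 0.0811 (adjusted p = 9.75e-05). Fyn, a Src family kinase, fell (-0.46 ± 0.127, adjusted p = 0.014), which was not kept without drug replicate 2 or vehicle replicate 2 (0.000959 to 0.126 over the alternatives).

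Of 15 tested transcription factors known to act on macrophage genes, 8 rose and 1 fell (median 0.29). The balance differed for drugs against day 0, where 6 of the 15 were called higher and 5 lower (median 0.07). Gfi1, the repressor whose core is marked in the promoters above, rose to 728 and 711 CPM with the drugs, against 248 and 281 CPM with vehicle (1.44 ± 0.0819, adjusted p = 3.69e-08). Sfpi1 encodes PU.1, whose core is also marked, and had 78.4 ± 1.67 CPM with the drugs against 62.2 ± 4.07 CPM with vehicle. Sfpi1 was called higher (0.34 ± 0.0737, adjusted p = 0.00397), a call that was not followed under the alternatives. Irf8, a monocyte lineage factor, had 28.3 and 32.7 CPM with the drugs against 6.25 and 6.35 CPM with vehicle (2.28 ± 0.141, adjusted p = 7.75e-08). Tfe3, a lysosomal gene activator, rose by 0.98 ± 0.126 (adjusted p = 6.41e-05), and Cebpa, a granulocyte fate factor, fell (-0.37 ± 0.0661, adjusted p = 0.000932). The macrophage factor Spic was listed at 0 in all 6 libraries.

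**Figure D5:**
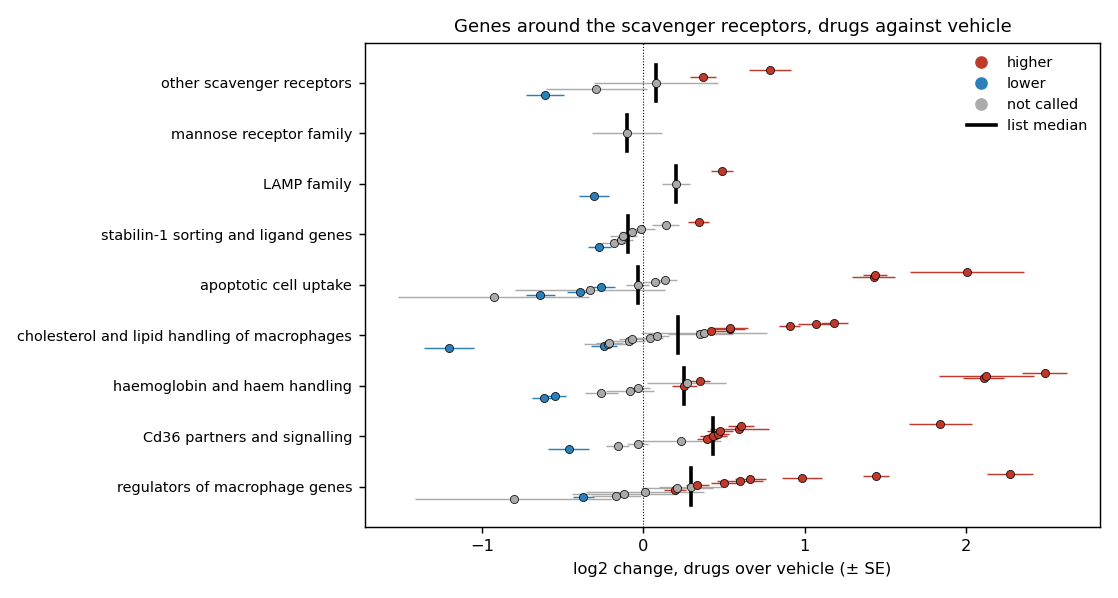
Log2 change of each tested gene of the 9 lists, drugs over vehicle, with bars of 1 SE, red for higher, blue for lower and grey for not called at an adjusted p of 0.05, and a black tick at the list median. The median is 0.43 for Cd36 partners and 0.29 for regulators, and -0.04 for apoptotic cell uptake, where 3 genes rose and 3 fell.

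In vehicle against day 0, 10 of the 81 genes rose and 5 fell, 12.3% and 6.17%, beside 3.75% and 3.99% of all tested genes. With scaling by library totals, which moves the median of all genes by 0.12 on the log2 scale, 27 rose, and the share of rises among all called genes was 89.0% rather than 48.5%. Egr1, an immediate early gene and macrophage factor, fell to 1.98 and 0.836 CPM with vehicle, against 38.9 and 40.2 CPM at day 0 (log2 change -4.79 ± 0.202, adjusted p = 7.74e-08). Sort1 rose to 96.6 and 95.2 CPM with vehicle, against 53.1 and 53.5 CPM at day 0 (0.85 ± 0.0685, adjusted p = 1.82e-05). Lrp1 rose by 0.80 ± 0.12 (adjusted p = 0.0017) and Hp by 0.94 ± 0.172 (adjusted p = 0.0059). Abca1, the main cholesterol exporter, fell to 12.2 and 9.45 CPM with vehicle, against 20.6 and 19.2 CPM at day 0 (-0.88 ± 0.133, adjusted p = 0.00178). Tlr4 and Tfec, a macrophage relative of Tfe3, rose by 0.37 ± 0.0693 (adjusted p = 0.00595) and 0.59 ± 0.105 (adjusted p = 0.0048). The calls of Ly75, Itgb5 and Abcg1 as higher and of Bach1 as lower were not kept under some alternatives. The Itgb5 and Abcg1 calls were lost without vehicle replicate 1 (adjusted p up to 0.111 and 0.1 over the alternatives). The Ly75 call was lost without either vehicle library or untreated replicate 1 and with DESeq2 (adjusted p up to 0.161), and the Bach1 call without either drug library, vehicle replicate 2 or untreated replicate 1, with library totals and with only the 2 groups fitted (adjusted p up to 0.0807).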

How the data were processed

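Polyadenylated RNA of 6 libraries was analysed. The authors deposited raw read counts per gene, called featurecount per the labels, with an exon length column in base pairs that was used for RPKM. The submitters' processing notes name STAR 2.7.0f, mm10 and deepTools 3.0.2. The sources used here do not give the strand setting, the handling of multiply matching reads or the annotation release. Counts were filtered with filterByExpr, scaled by TMM and fitted for all 3 groups together with edgeR 4.0.16 (R 4.3.3), with the quasi-likelihood F test, Benjamini-Hochberg adjustment over 11283 genes and a threshold of 0.05. The fit had 3 residual degrees of freedom and a common coefficient of variation of 0.0592. It was tested on simulated data. CPM are TMM-scaled, the SE comes from the F statistic, and log2 changes carry a prior count of 0.125.

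The members and lists were chosen with earlier results of these data known. Named list genes are, per list, the 3 called with the smallest p in each direction for drugs against vehicle and the 2 for vehicle against day 0. Genes listed at 0, neighbours, Sfpi1 and the named cell type markers were chosen outside that rule. Some genes that these rules selected are not reported here. Of 206 list genes 204 were found, 5 by an older symbol (Emr1 for Adgre1). Promoters came from RefSeq GRCm38.p6, which had 8 of the 10 receptors. Alternatives were library totals, size factors and tests of DESeq2 1.42.0, no filter, no Rn45s, 2-group fits, replicate blocks and each library left out. Replicates differed beyond counting error: without Rn45s, chi-square divided by its degrees of freedom was 1.83 with the drugs, 4.87 with vehicle and 7.7 at day 0.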

Additional observations from a re-analysis of the deposited data

How the results depend on the processing

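Of the log2 changes of named genes, 700 of the values for drugs against vehicle under the alternatives had the same direction and side of the threshold as reported, 38 lost a call and 4 gained one. For vehicle against day 0 these numbers were 691, 19 and 32, and for drugs against day 0 they were 710, 23 and 9. No value changed sign among called genes. Counts for vehicle against day 0 moved most. Library totals gave 1741 genes higher and 216 lower there, with 2 receptors and 27 list genes higher, and 1321 genes lower for drugs against day 0. Without the low-count filter 821 were higher and 843 lower, with 2 receptors higher, and 2 receptors were higher without Rn45s. Fitting only the 2 groups gave 269 higher and 258 lower, with 3 list genes lower, and DESeq2 gave 255 and 236. Scarb1 became 1 receptor called lower for drugs against vehicle with library totals and with only the 2 groups.

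Leaving out each library gave, for drugs against vehicle, 1251 to 2291 genes higher and 582 to 1900 lower, with the low ends without a drug library (1251 and 582 without replicate 1, 1348 and 708 without replicate 2). For vehicle against day 0 it gave 155 to 851 higher and 196 to 1161 lower, 0 to 1 receptors higher, and 5 to 11 list genes higher and 3 to 9 lower. The lowest of these gene counts came without vehicle replicate 1 (155 and 196) or untreated replicate 1 (162 and 197), and the highest without untreated replicate 2. For drugs against day 0 it gave 1667 to 2632 higher and 1205 to 2625 lower, 3 to 4 receptors higher, and 9 to 15 list genes lower. A group left with 1 library was assumed to vary like the others. The cause was not tested.

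The replicate number was not shown to pair libraries: deviations of same-numbered libraries had r of 0.0807 between drugs and vehicle, -0.199 between vehicle and day 0, and -0.0604 between drugs and day 0. A replicate block gave 222 genes higher and 261 lower for vehicle against day 0, and under it Cd63, Itgb3 and Mcpt8 for drugs against vehicle (adjusted p = 0.0564, 0.0651 and 0.0762) and Bach1 for vehicle against day 0 (0.051) were not called. With the pairing crossed, an alternative chosen after seeing the data, that comparison gave 1097 higher and 1283 lower, with 2 receptors higher and 16 list genes higher and 10 lower, and 1 receptor was lower for drugs against vehicle. With 2 libraries per group, changes of genes at a few counts, such as Stab2, Msr1, Cd36, Mrc1 and Cd163, were poorly resolved at this depth.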
